A study of Mus musculus with 2 samples.

Results

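The genes described here are the nuclear genes for the respiratory chain and ATP synthase of mitochondria, in hippocampal tissue of mice. They were taken by name from the transcript annotation: every gene with a protein-coding transcript whose symbol starts with Nduf, Uqcr, Cox4 to Cox8 or Atp5, or is Sdha, Sdhb, Sdhc, Sdhd or Cyc1. This gave 95 of the 55536 mouse genes in the tables, under 94 symbols, since Atp5o has 2 gene entries. By the known make-up of the complexes, 36 genes encode subunits of complex I, 4 of complex II, 9 of complex III, 20 of complex IV or its isoforms and 16 of complex V. The name rule also took 9 assembly factors (8 Ndufaf genes and Atp5s), which are not part of the finished complexes, and the second Atp5o entry. Ndufa4 and Ndufa4l2 are named after complex I and were placed with complex IV, to which their proteins belong. Cox7a2l, a factor that joins complexes into supercomplexes, was kept with complex IV.

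Total RNA was sequenced from 2 libraries of 1 group: hippocampus of male B6CASTF1/J mice, the F1 cross of C57BL/6J and CAST/EiJ, at 36 days of age, with no treatment named. The labels call the tissue a layer of the hippocampus and do not say which part was dissected. They give both samples 1 donor identifier and different biosamples, so separate animals rest on the replicate numbers. Per the labels 300 ng of RNA and ERCC spike-ins entered each library, of a stranded, ribosomal RNA-reduced type. With 1 group, levels are described and the only test sets replicate 2 against replicate 1.

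The respiratory chain passes electrons from NADH (complex I) and succinate (complex II) through coenzyme Q to complex III, from there through cytochrome c to complex IV, and on to oxygen. Complexes I, III and IV pump protons across the inner mitochondrial membrane, and complex V, the ATP synthase, makes ATP as protons flow back. Complexes I, III, IV and V mix subunits from the mitochondrial genome with many more from the nucleus, whereas all subunits of complex II are nuclear. Neurons depend on this pathway for most of their ATP.

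Total expected counts were 28786216 in replicate 1 and 29755033 in replicate 2, of which the 95 genes held 0.552% and 0.539%. As TPM (a level per transcript length, scaled to a fixed total per library) they summed to 10566.8 and 10171.4, or 2.54% and 2.49% of the TPM of all protein-coding nuclear genes. Of the 4 excitatory neuron markers, Camk2a had 1346.56 and 1413.95 TPM in replicates 1 and 2 and Nrgn 636.01 and 596.18 TPM. Slc17a7 had 554.19 and 538.03 TPM and Neurod6 76.28 and 65.27 TPM. Glial markers were high too, with Slc1a2 of astrocytes at 742.68 and 739.14 TPM and Mbp of oligodendrocytes at 722.83 and 729.18 TPM. All 6 choroid plexus markers were apart between the libraries by the binomial test described below, where 1.88% of all genes tested were. Apart means an adjusted p under 0.05 and at least 1.5-fold. They were higher in replicate 2, where their TPM summed to 185.85, against 4.61 in replicate 1. Ttr held 179.24 TPM of the sum in replicate 2 and 3.62 TPM in replicate 1. The other markers had 0.89 to 1.94 TPM in replicate 2, from 31 to 115 counts. The tissue is a mixture of cells, and fewer cells of a type cannot be told apart from less RNA per cell.

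Nearly all of these genes were expressed, and at high levels. At 1 TPM or more in both libraries were 90 of the 95 genes (94.7%), against 57.8% of 22028 protein-coding genes. At a mean of 100 TPM or more over the 2 libraries were 43 of the 95 (45.3%), against 3.62% of protein-coding genes. The median over the 90 expressed genes was 98.3 TPM in replicate 1 and 94.0 TPM in replicate 2, against 15.1 and 14.9 TPM over the 12733 expressed protein-coding genes. By mean TPM, 55 of the 95 stood in the top 5% of protein-coding genes and 74 in the top 10%, and all 74 were subunits. The 5 genes under 1 TPM in both libraries were Cox4i2, Cox7b2, Cox8b, Cox8c and the second Atp5o entry.

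Between complexes the medians differed by less than the spread of genes within each complex. The median subunit of complex V stood at 141 TPM ± 5.44, that of complex III at 138 TPM ± 1.44 and that of complex IV at 127 TPM ± 0.0955 (SD, n = 2 libraries each). Those of complex I, at 81.9 TPM ± 3.44, and complex II, at 74.1 TPM ± 2.39, were lower (SD, n = 2 each). The gap between complexes V and III was smaller than the spread between libraries, and the gap between complexes I and II exceeded it. The median of complex IV includes 8 isoforms classed as tissue-restricted that were near 0. Its other 11 subunits had a median of 244 TPM, and the lowest of them, Cox7a2, stood at 126 TPM. The median over all of complex IV lay midway between Cox7b, with 121.98 and 134.12 TPM in replicates 1 and 2, and Cox7a2, with 132.63 and 120.22 TPM. These genes moved in opposite directions, so the SD of that median is far below the SD of either gene, 8.58 and 8.78 TPM. No test was made between complexes, since genes of 1 complex are not replicates.

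**Figure D1:**
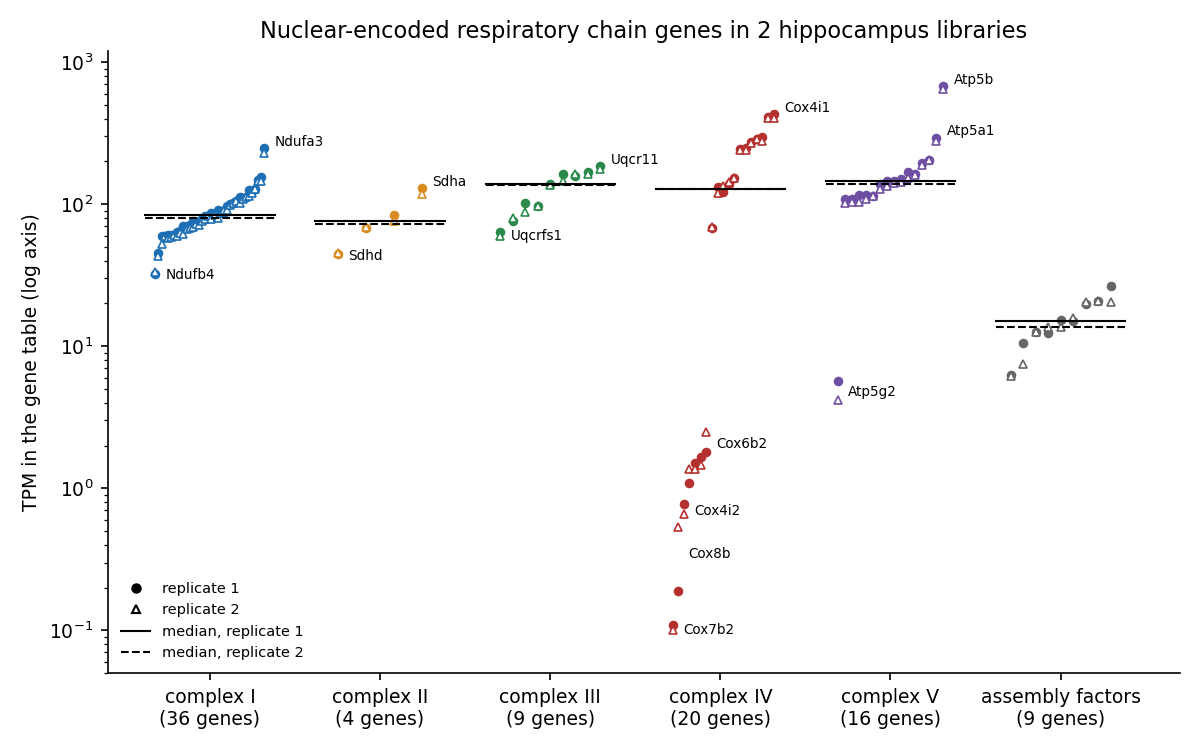
TPM of each gene in the gene table (vertical log axis), by complex I to V and for the assembly factors; circles are replicate 1, triangles replicate 2, and horizontal lines the medians of each. Medians are near 80 TPM in complexes I and II and between 127 and 141 TPM in complexes III to V, and the assembly factors lie near 14 TPM. The isoforms of complex IV classed as tissue-restricted lie at the bottom, and genes at 0 are not drawn.

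Within complex I, which takes electrons from NADH, the 7 core subunits that carry out electron transfer lay close together. Their median was 93.6 TPM, and the lowest, Ndufs8, stood at 56.1 TPM. Ndufv1, which binds the flavin that accepts electrons from NADH, had 99.69 and 98.94 TPM in replicates 1 and 2, and its partner Ndufv2 had 101.55 and 101.73 TPM. Ndufs1, the largest core subunit and a carrier of iron-sulfur clusters, had 64.81 and 63.00 TPM. Ndufs7, an iron-sulfur subunit near the site where coenzyme Q is reduced, had 86.34 and 78.74 TPM. Ndufs3 had 96.90 and 90.25 TPM, and Ndufs8, another iron-sulfur subunit, had 59.56 and 52.57 TPM. The 29 accessory subunits, which surround the core and help to assemble it, spanned 32.8 to 238 TPM with a median of 80.9 TPM.

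Among the accessory subunits, Ndufa3, a small membrane subunit, was highest at 247.17 TPM in replicate 1 and 228.25 TPM in replicate 2. Ndufb9 followed with 155.01 and 146.25 TPM and Ndufb8 with 148.80 and 145.68 TPM, both of the membrane arm. Lowest were Ndufb3, with 44.97 and 43.36 TPM, and Ndufb4, with 32.35 and 33.22 TPM, also of the membrane arm. Both ends of this order depend on the table: Ndufa3 over Ndufb4 was 0.940 ± 0.163 by TPM of the second table and 7.26 ± 0.544 by TPM of the gene table (SD, n = 2 libraries each). The reads of both genes are taken up again further on.

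In complex II, succinate dehydrogenase, which also serves the citric acid cycle, the flavoprotein Sdha was highest with 130.74 and 118.66 TPM in replicates 1 and 2. The membrane anchor Sdhc had 84.15 and 75.56 TPM and the iron-sulfur subunit Sdhb had 67.50 and 69.34 TPM. The other membrane anchor, Sdhd, was lowest with 44.72 and 45.22 TPM. Sdha over Sdhd was 2.77 ± 0.212 by gene table TPM (SD, n = 2), although the proteins stand in the complex at 1 copy each.

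In complex III, which hands electrons from coenzyme Q to cytochrome c, the 5 small accessory subunits had a median of 161 TPM and the 4 larger subunits one of 86.6 TPM. Uqcr11 had 184.96 and 175.21 TPM in replicates 1 and 2, Uqcrq 167.09 and 162.72 TPM, and Uqcrh, which binds near cytochrome c1, 157.57 and 163.45 TPM. Uqcr10 had 161.68 and 146.34 TPM. The core proteins Uqcrc1 and Uqcrc2 had 138.94 and 136.90 TPM and 102.45 and 88.54 TPM. The redox subunits were the lowest: Cyc1, cytochrome c1, had 75.66 and 79.60 TPM, and Uqcrfs1, the Rieske iron-sulfur protein, had 63.83 and 59.90 TPM.

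In complex IV, cytochrome c oxidase, Cox4i1, the largest nuclear subunit, had 428.15 and 404.73 TPM in replicates 1 and 2. Cox8a had 412.99 and 402.50 TPM and Cox6a1 had 296.86 and 279.99 TPM, so that these 3 exceeded every gene of complexes I, II and III in both libraries. Ndufa4 followed with 289.36 and 286.30 TPM. Cox5b, which binds zinc, had 273.11 and 270.39 TPM, and Cox5a had 152.63 and 152.93 TPM. Cox6b1, which faces the cytochrome c side, had 247.17 and 240.78 TPM. Cox7c had 137.85 and 142.53 TPM, Cox7a2 132.63 and 120.22 TPM, and Cox7b, on chromosome X, 121.98 and 134.12 TPM. Cox7a2l was lower, with 68.11 and 68.57 TPM.

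Complex IV is the complex in which several subunits have isoforms of restricted use, and in the hippocampus the general isoform held nearly all of the RNA in each pair. The 8 restricted isoforms summed to 7.11 and 7.96 TPM in replicates 1 and 2, while the other 12 genes summed to 2805.56 and 2743.12 TPM. Cox4i1 over Cox4i2, the isoform known from lung, was 585 ± 40.4, and Cox7a2 over Cox7a1, the heart and skeletal muscle isoform, was 81.1 ± 0.990 by gene table TPM (SD, n = 2 each). Cox6a1 over Cox6a2, also of heart and skeletal muscle, was 239 ± 47.0, and Cox6b1 over Cox6b2, a testis isoform, was 118 ± 28.7. Ndufa4 over Ndufa4l2, which is induced by low oxygen, was 200 ± 12.3. By second table TPM, Cox7a2 over Cox7a1 was 178 ± 30.3, Cox6a1 over Cox6a2 391 ± 145 and Cox6b1 over Cox6b2 76.2 ± 11.1 (SD, n = 2 each).

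The restricted isoforms rest on few reads. Cox6b2 had 1.79 and 2.47 TPM from 12 and 20 counts, Cox7a1 1.65 and 1.47 TPM from 10 counts in each library, and Ndufa4l2 1.51 and 1.37 TPM from 26 and 20 counts. Cox6a2 had 1.09 and 1.36 TPM from 13 and 17 counts and Cox4i2 0.77 and 0.66 TPM from 10 and 9 counts. Cox8b had 1 and 3 counts, Cox7b2 1 count in each library and Cox8c 0 in both. A count of 0 allows up to 3 counts, or 0.104 and 0.101 CPM in replicates 1 and 2. The 5 muscle markers summed to 6.76 and 6.46 TPM in replicates 1 and 2. Of these, Myh7 had 4.08 and 3.64 TPM, with shared reads, Acta1 2.46 and 2.55 TPM, and Tnni2 and Myh1 under 1 TPM, while Ckm stood at 0. All 4 testis markers stood at 0. Whether RNA from other tissue had a part in these low values was not tested.

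In complex V, Atp5b, the catalytic beta subunit of the F1 head (chr10:128083273-128090391, plus strand, mm10), was the highest of all 95 genes. It had 673.08 and 643.88 TPM in replicates 1 and 2, rank 41 among protein-coding genes. The alpha subunit Atp5a1 had 293.75 and 280.06 TPM. Alpha and beta subunits alternate in the F1 head in equal numbers, yet Atp5b over Atp5a1 was 1.99 ± 0.0308 by the second table and 2.30 ± 0.00547 by the gene table (SD, n = 2 libraries each). The subunits of the central stalk were lower, with 108.55 and 101.21 TPM for Atp5c1 (gamma), 138.85 and 128.29 TPM for Atp5d (delta) and 113.94 and 113.59 TPM for Atp5e (epsilon). The 4 genes of the peripheral stalk had a median of 155 TPM and ran from Atp5f1, at 113 TPM, to Atp5h, at 192 TPM. The 4 small membrane subunits spanned 106 TPM (Atp5j2) to 144 TPM (Atp5mpl).

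The rotating c ring is made of a single mature protein that 3 genes encode, Atp5g1, Atp5g2 and Atp5g3. Atp5g3 had 205.77 and 203.69 TPM in replicates 1 and 2, Atp5g1 had 167.16 and 152.29 TPM, and Atp5g2 had 5.65 and 4.21 TPM, the lowest of complex V. In the second table Atp5g2 stood at 168 and 165 TPM. For this gene the level therefore turns on which of the authors' tables is read.

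The 9 assembly factors help to build complex I (Ndufaf genes) or complex V (Atp5s) and had a median of 14.4 TPM ± 1.00 (SD, n = 2), below the median subunit of every complex. By mean TPM Ndufaf7, a methyltransferase, was highest with 26.64 and 20.52 TPM, and Ndufaf6 lowest with 6.24 and 6.17 TPM. Another 44 genes for assembly or regulation of the complexes, listed without regard to the name rule, had medians of 14.7 and 14.9 TPM in replicates 1 and 2. These 44 ran from Nubpl, with 1.66 and 2.18 TPM, to Usmg5, with 340.46 and 323.78 TPM. Usmg5 encodes a small subunit of the ATP synthase. Atpif1, the inhibitor of ATP hydrolysis by complex V, had 173.80 and 164.20 TPM.

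Between the 2 libraries the levels of these genes were close. By a binomial test, exact and two-sided, of expected counts scaled by TMM (trimmed mean of M values), with Benjamini-Hochberg adjustment over 18270 genes, 0 of the 90 genes tested were apart (adjusted p under 0.05 and at least 1.5-fold), where 1.88% of all genes tested were. Under an adjusted p of 0.05 at any fold were also 0 of the 90, where 11.4% of all genes were. At an unadjusted p under 0.05 were 10 of the 90 (11.1%), against 21.8% of all genes tested. The test compares these 2 libraries, and with 1 group it says nothing about a condition.

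The 10 genes were Ndufa3, Ndufab1, Ndufs7, Ndufs8, Sdha, Atp5a1, Atp5b, Atp5d, Atp5f1 and Ndufaf2, and each was lower in replicate 2. Atp5b had 18858 expected counts in replicate 2 and 18820 in replicate 1, a log2 ratio of −0.04 after scaling, with an adjusted p of 0.0678 by the binomial test. With libraries scaled by their total counts, Atp5b alone among the 90 genes fell under an adjusted p of 0.05, still without reaching 1.5-fold.

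The ratios farthest from 1 belonged to genes of low count. Ndufaf2, a complex I assembly factor, stood at 97 counts in replicate 2 against 129 in replicate 1, a log2 ratio of −0.45 with an adjusted p of 0.125 by the binomial test. Atp5g2 followed at −0.43 and Ndufa4l2 at −0.41. In the second table Ndufaf2 stood at −0.01, Atp5g2 at −0.04 and Ndufa4l2 at −0.85. On the other side Cox6b2 stood at 20 counts in replicate 2 against 12 in replicate 1, a log2 ratio of 0.67 with an adjusted p of 0.540 by the binomial test. Cox6a2 stood at 0.33 and Ndufaf8 at 0.28. In 83 of the 90 genes the 95% Clopper-Pearson interval of the fold lay inside 1.5-fold, and in the 76 genes with 500 counts or more on average the limits lay between 0.811 and 1.19. These intervals cover counting error only.

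Within 1.1-fold between the libraries were 80 of the 90 genes (88.9%), against 56.8% of all genes tested. Among genes with 500 counts or more on average the shares were 96.1% of 76 and 81.2% of 7788. The median log2 ratio of the 90 genes was −0.04, against −0.0025 over all genes tested, with 57 lower and 33 higher in replicate 2. With libraries scaled by their ERCC spike-ins the medians were 0.0034 over the 90 genes and 0.04 over all genes, so the sign depends on the scaling and the 90 genes stood lower than all genes under both. By complex the medians were −0.04 in I, −0.00025 in II, −0.04 in III, 0.0032 in IV and −0.05 in V. The choroid plexus markers moved between the same libraries, with Ttr at 4202 counts in replicate 2 and 81 in replicate 1. Their part in the small shift of these genes was not tested.

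**Figure D2:**
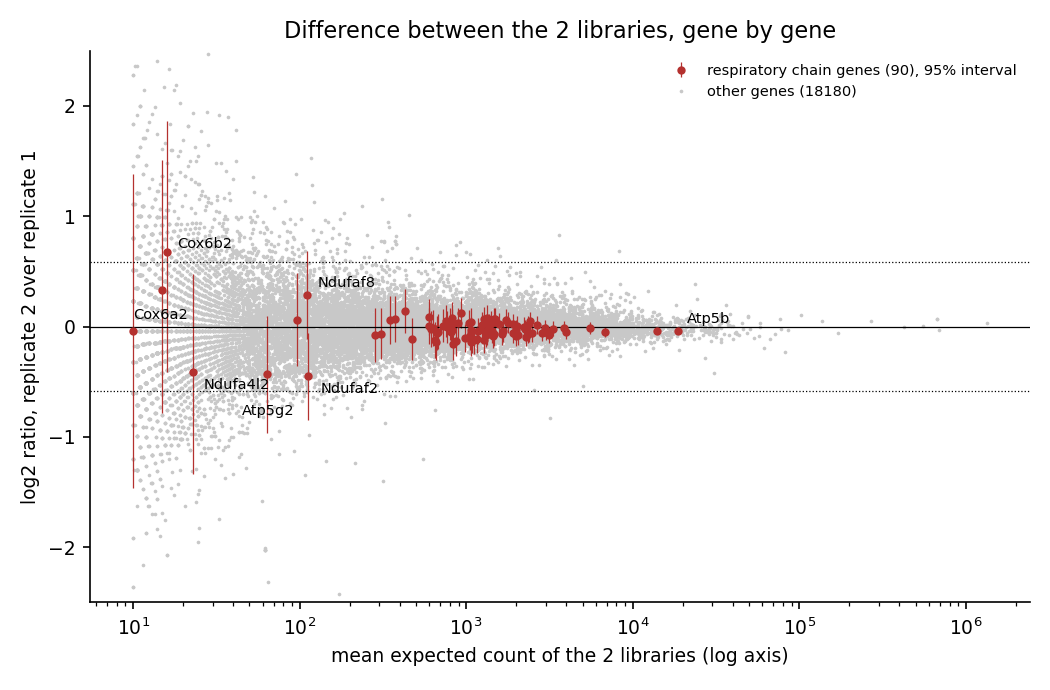
Log2 ratio of scaled expected counts, replicate 2 over replicate 1 (vertical), against the mean expected count (horizontal log axis), for the 90 genes tested (red, with 95% intervals) and all other genes tested (grey); dotted lines mark 1.5-fold. The genes of the respiratory chain form a band near 0, within 1.1-fold for 80 of 90, and those that leave it have few counts; 48 other genes lie beyond ±2.5 and are not drawn.

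The 13 subunits encoded by mitochondrial DNA held more RNA than the 95 nuclear genes together. The nuclear genes summed to 10566.8 and 10171.4 TPM in replicates 1 and 2, and the mitochondrial genes to 28870.4 and 26414.4 TPM, which is 2.73 and 2.60 times as much. By complex this ratio was, in the gene table, 3.83 and 3.62 in I, 2.93 and 2.85 in III, 2.68 and 2.73 in IV and 1.88 and 1.59 in V. In the second table mt-Nd4l had 15.2 and 17.9 TPM and mt-Atp8 0 in both libraries. In the gene table they had 2365.02 and 2217.43 TPM and 2459.83 and 2186.77 TPM. The second table was higher for mt-Co2, with 1571 and 1172 TPM against 251.06 and 165.43 TPM. The order of complexes by this ratio was read from the gene table alone. The highest of the 13 was mt-Co1, the catalytic subunit of complex IV, with 5832.71 and 5490.90 TPM. The lowest by mean TPM of the gene table was mt-Nd6, the only one on the other DNA strand, with 165.00 and 174.98 TPM. Its level lay within the range of the nuclear genes of complex I. None of the 13 was apart between libraries by the binomial test (1.88% of all genes were), and 11 were lower in replicate 2. Under an adjusted p of 0.05 at any fold were 12 of the 13 (11.4% of all genes were), a test that covers counting error only. Their log2 ratios ran from −0.58 for mt-Co2, with 2087.13 counts in replicate 2 and 3020.03 in replicate 1, to 0.38 for mt-Co3. For mt-Atp6 the log2 ratio was −0.42 and for mt-Co1 −0.06. Of these, mt-Atp6, mt-Co2 and mt-Co3 share reads with other genes, which makes their values and the sums within complexes IV and V less certain.

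Of the wider pathway, 70 genes for assembly, electron carriers, coenzyme Q synthesis and transcriptional control were listed, and 68 were at 1 TPM or more in both libraries. None of the 69 tested was apart between the libraries by the binomial test, where 1.88% of all genes were. Under an adjusted p of 0.05 at any fold was 1 of the 69 (11.4% of all genes were), Sdhaf4, a complex II assembly factor, with 197 counts in replicate 2 and 262 in replicate 1, a log2 ratio of −0.45. Cycs, the somatic cytochrome c that links complexes III and IV, had 19.74 and 17.97 TPM in replicates 1 and 2 by the gene table. In the second table Cycs stood at 206 and 197 TPM, and it shares reads with other genes. Its testis form Cyct had 1 and 0 counts. All 10 genes of coenzyme Q synthesis were expressed. By mean TPM the lowest was Coq3, with 5.20 and 3.95 TPM, and the highest Coq2, with 35.04 and 30.20 TPM.

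Transcription factors and coactivators known to control these genes were expressed at lower levels than the median subunit of every complex. Nrf1, nuclear respiratory factor 1, had 8.66 and 8.51 TPM in replicates 1 and 2, and Gabpa, the DNA-binding part of nuclear respiratory factor 2, had 10.95 and 11.77 TPM. Ppargc1a, a coactivator that drives mitochondrial gene expression, had 17.15 and 16.93 TPM, and Tfam, which packages and transcribes mitochondrial DNA, had 16.25 and 18.06 TPM. Esrra, an estrogen-related receptor, was highest of the 14 regulators with 23.48 and 22.54 TPM, and its relative Esrrb lowest with 0.58 and 0.63 TPM. Among general mitochondrial proteins, Vdac1, the channel of the outer membrane, had 216.21 and 203.25 TPM and Idh3a, of the citric acid cycle, 70.93 and 68.64 TPM.

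Several of these genes have near-identical copies elsewhere in the genome, and the 2 tables gave genes and copies different counts. A copy was counted where a transcript of another gene, annotated as protein-coding or a pseudogene, outside the 95 and not overlapping, shared at least 100 windows of 31 bases, and at least 30% of its windows, with transcripts of the gene in question. By this rule, chosen after the values were seen, 19 genes had 31 copies, of which 30 are annotated as pseudogenes. In the second table the copies held 431 and 406 estimated counts in replicates 1 and 2, and the gene table gave them 4147 and 4362 expected counts. Copies took at least 10% of the counts of gene and copies together in both libraries for 1 gene in the second table, Ndufab1, and for 8 genes in the gene table.

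The most affected was Atp5g2 (chr15:102662864-102672352, minus strand, mm10), whose 438 coding bases are all found in Gm10175 on chromosome 7. In the second table Atp5g2 held 997 and 989 counts in replicates 1 and 2 and its copies 0. In the gene table Atp5g2 held 71.82 and 55.34 counts and its copies 1071.18 and 1064.66. The last 90 coding bases (349 to 438, numbered from the A of the start codon; GENCODE M21 transcripts) show what an aligner meets, with no base that differs.
Atp5g2: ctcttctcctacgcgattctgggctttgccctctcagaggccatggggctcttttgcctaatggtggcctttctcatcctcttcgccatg
Gm10175: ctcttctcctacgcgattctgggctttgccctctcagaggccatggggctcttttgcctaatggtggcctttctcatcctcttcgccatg

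A copy need not be identical for the 2 tables to differ in counts. Ndufs5, an accessory subunit of complex I on chromosome 4, and BC002163 on chromosome 16 differ in 2 of 318 coding bases, T81C and A105G (the base of Ndufs5, its position from the A of the start codon, then the base of BC002163). The capitals below mark both in coding bases 81 to 170.
Ndufs5: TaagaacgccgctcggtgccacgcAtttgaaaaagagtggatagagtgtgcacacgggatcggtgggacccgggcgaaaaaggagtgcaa
BC002163: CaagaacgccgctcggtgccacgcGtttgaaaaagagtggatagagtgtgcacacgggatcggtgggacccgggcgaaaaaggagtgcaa

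In the second table Ndufs5 held 776 and 802 counts in replicates 1 and 2 and its copy 0. In the gene table Ndufs5 held 674.23 and 666.07 counts and its copy 215.77 and 193.93, or 24.2% and 22.6% of both. Ndufb4, the lowest gene of complex I above, is identical over 387 coding bases to Ndufb4c on chromosome 15. Ndufb4c held 61.6% and 61.1% of the counts of both in the gene table and 0 in the second. Gene and copy together held 882 and 931 counts in replicates 1 and 2 of the gene table, but 516 and 513 in the second. Cox7c is identical over 189 coding bases to Gm12338 on chromosome 11, and its copies held 40.0% and 38.4% in the gene table. Cox7c and its copies together held 2062 and 2167 counts there, and 1648 and 1668 in the second table. The copies of Atp5l held 22.5% and 23.3% there, that of Cox7a2l 15.9% and 15.3%, that of Atp5h 15.0% and 16.7% and that of Ndufa12 11.1% and 13.1%. Among the genes named here only Cox7a2l and Ndufa12 had higher totals with their copies in the second table than in the gene table. So the tables differed in these totals as well as in their division. The authors' programs made these counts, and which table is nearer to the RNA in the tissue was not tested.

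**Figure D3:**
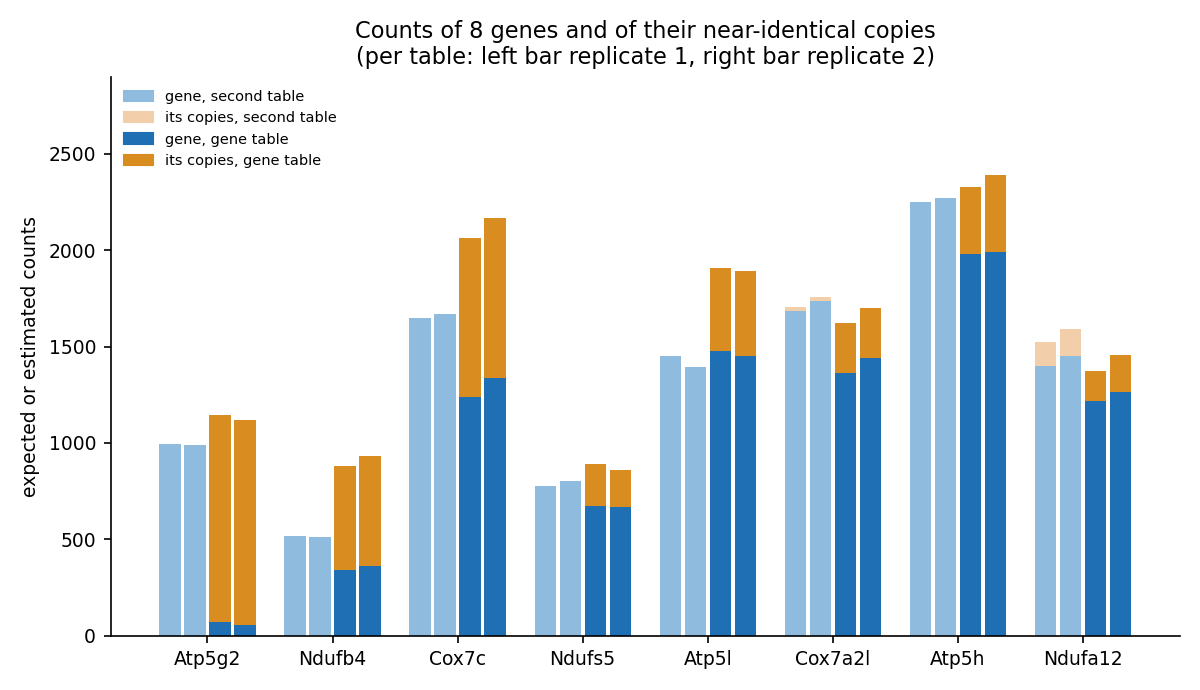
Counts (vertical) of each gene and of its near-identical copies, stacked, for the 8 genes whose copies held at least 10% of the counts in both libraries of the gene table; per gene the bars are the second table, replicates 1 and 2, and then the gene table, replicates 1 and 2. Copies take most of the Atp5g2 and Ndufb4 bars in the gene table, and are at or near 0 in the second table except for Ndufa12.

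Apart from copies, TPM differed between the tables for nearly every gene. Over the 90 expressed genes the median log2 ratio of the second table over the gene table was 0.87 (0.83 and 0.89 in replicates 1 and 2), against 0.75 over expressed protein-coding genes. In 88 of the 90 genes (97.8%) the second table was higher, against 98.8% of protein-coding genes. A level can thus be compared only within 1 table. The order of complexes I and II below III, IV and V was the same in the second table, with medians of 155, 106, 240, 283 and 285 TPM in complexes I to V.

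Atp5g2 stood farthest above, at a log2 ratio of 5.09 between the tables, and Ndufb4 next at 2.43. Atp5e had 432 and 422 TPM in replicates 1 and 2 of the second table, against 113.94 and 113.59 TPM in the gene table, a log2 ratio of 1.91. Cox7c stood at 1.90 and Cox7a2 at 1.65. At the other end Ndufa3 had 190 and 142 TPM in the second table and 247.17 and 228.25 TPM in the gene table, a log2 ratio of −0.53. Sdhc stood at −0.03, Ndufa1 at 0.07, Ndufab1 at 0.25 and Cox6a2 at 0.29.

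These genes are short, which bears on both tables. The median transcript length of the 90 was 691 bases, against 2511 bases over expressed protein-coding genes, and 68 of the 90 (75.6%) were under 1000 bases, against 8.09%. TPM divides counts by an effective length, which for a transcript of 400 bases was about 105 bases in the second table and 301 bases in the gene table. Within bins of length the genes of the respiratory chain lay near other protein-coding genes. Between 500 and 700 bases the median log2 ratio was 0.96 over 30 of them and 0.93 over 238 other genes, and under 500 bases it was 0.56 over 16 and 0.58 over 102. Counts went the other way, with 55 of the 90 lower in the second table (15.9% of protein-coding genes).

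**Figure D4:**
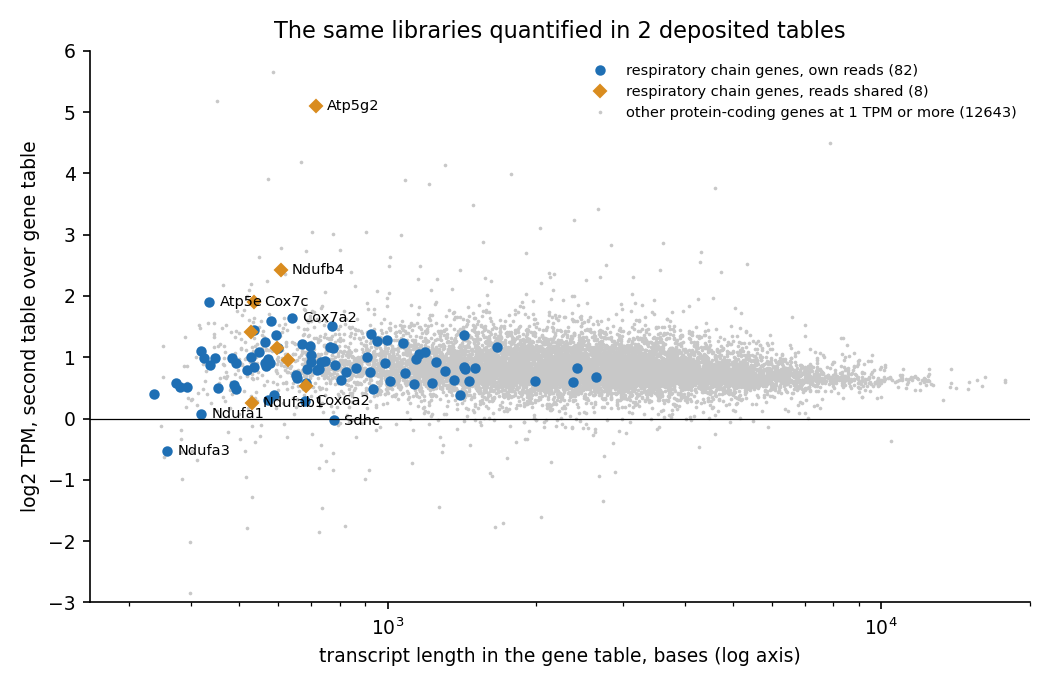
Log2 ratio of TPM, second table over gene table (vertical), against transcript length in bases (horizontal log axis), for the genes of the respiratory chain (blue, or orange diamonds where flagged as sharing reads) and other expressed protein-coding genes (grey). The coloured points crowd at the short end, where the spread of all genes is widest, and Atp5g2 stands apart at 5.09; 36 other genes lie outside the axis range.

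A gene's TPM need not come from RNA that encodes the protein. The 95 genes have 438 annotated transcripts, of which 229 are protein-coding, 112 retain an intron, 71 are processed transcripts with no reading frame and 26 are marked for nonsense-mediated decay. The share of a gene's TPM in protein-coding transcripts, by the first transcript table, had a median of 95.6% over the 90 expressed genes, against 87.5% over expressed protein-coding genes. In 52 genes (57.8%) it exceeded 90%, against 45.7% of protein-coding genes, and in 16 genes (17.8%) it was under 50%, against 11.0%.

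Ndufa3 had the lowest share, 8.22% and 5.36% in replicates 1 and 2. Its leading transcript Ndufa3-204, of 343 bases and marked for nonsense-mediated decay, had 222.92 and 213.74 TPM, so it made up most of the level that put Ndufa3 first in complex I. In the second table Ndufa3-204 had 28.7 and 0 TPM. Atp5j, a subunit of the peripheral stalk, had coding shares of 13.3% and 11.8%, led by Atp5j-208, which retains an intron, at 118.42 and 115.84 TPM. In the second table the coding share of Atp5j was 89.5% and 92.4%, led by the coding Atp5j-203. Ndufb4 had coding shares of 21.1% and 18.5%, Ndufs4 19.7% and 23.5% and Ndufa10 27.7% and 30.3%.

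Other genes differed in the opposite direction. Cox6a1 had coding shares of 10.5% and 11.0% in replicates 1 and 2 of the second table, against a mean of 99.1% in the first. There the transcript Cox6a1-202, which retains an intron and is 620 bases long, led with 514 and 493 TPM, and in the first the coding Cox6a1-201, 571 bases long, led with 294.12 and 277.31 TPM. Cox7b had 0.799% and 0.922% in the second table, against 51.5% and 41.7% in the first. Over the 90 genes the median share was 87.0% in the second table, against 85.5% over expressed protein-coding genes. In 22 of the 90 genes the tables differed by more than 20 points. Of the 81 genes with several transcripts, 52 had the same leading transcript in both tables and 29 did not, while 77 had the same one in both libraries. These counts were not made over other protein-coding genes, so they are not read as particular to the respiratory chain.

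**Figure D5:**
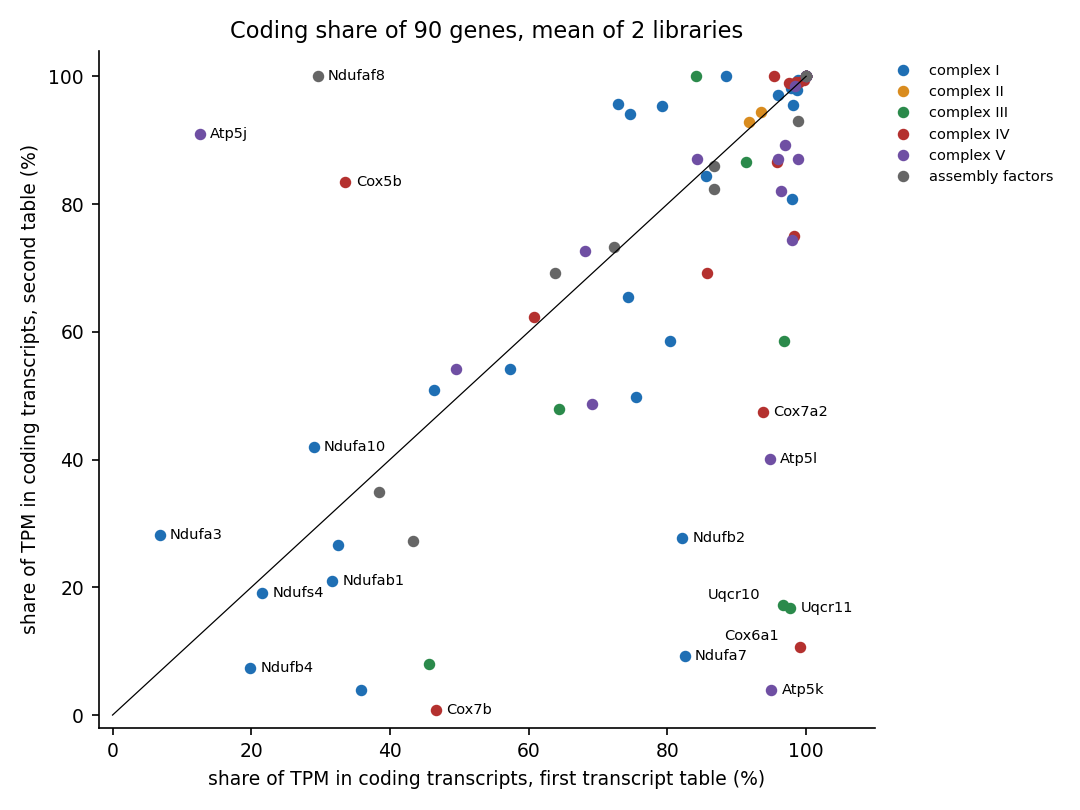
Percent of a gene's TPM in protein-coding transcripts, the second table (vertical) against the first transcript table (horizontal), for the 90 expressed genes as the mean of 2 libraries. Points far from the diagonal are genes whose coding share depends on the table, such as Cox6a1 and Cox7b below it and Atp5j above it.

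Overlap adds a further limit. No source used here gives the strand setting of the counting. On the opposite strand 33 of the 95 genes overlap a gene, among them Ndufa3 with Tfpt, Cox4i1 with Emc8 and Atp5j with Gabpa. The same share over all genes was not counted. Another limit concerns genes flagged as sharing reads, 9 of the 95, against 3457 of all 55536 genes. A gene was flagged where, in either library, its expected count was not whole and its posterior SD was at least 1% of the count. The 9 were Atp5g1, Atp5g2, Atp5l, the second Atp5o entry, Cox7c, Ndufa12, Ndufab1, Ndufb4 and Ndufs5. Genes without the flag can share reads too. Atp5h, Cox7a2l and Cox5b were not flagged, while their copies held 15.0%, 15.9% and 6.87% of the counts in replicate 1 of the gene table. The second Atp5o entry (chr16:91684398-91926982, minus strand, mm10) overlaps one end of the first (chr16:91925214-91931687, minus strand), and held 0 counts in replicate 2 and 5.33 in replicate 1 of the gene table. In the second table it held 0.773 estimated counts in replicate 2 and 20.3 in replicate 1, and was apart there.

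Promoters of these genes were read from RefSeq (GRCm38.p6, the assembly of mm10), as 250 bases before to 50 bases after the start, for the 76 genes with an entry. Motifs were searched on both strands. Nuclear respiratory factor 1 is known to bind a palindromic GC-rich site, here GCGCANGCG. Nuclear respiratory factor 2 binds ETS sites, here CCGGAAG. Estrogen-related receptors bind AAGGTCA, and YY1 binds AAGATGG. The 4 motifs do not contain one another. A match describes letters, and no binding was measured.

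The promoters below show a pair with both of the first 2 motifs, one with the first alone in the stretch shown and, for the highest gene, one with none of the 4. Each is the 160 bases before the RefSeq start, 5′ to 3′ on the strand of the gene, with motifs in capitals. This start can differ from the GENCODE annotation used elsewhere, and the windows of Cox6a1, Ndufs6 and Atp5b reach into the GENCODE gene. In Cox6a1 and Ndufs6 the motif nearest the RefSeq start lies inside that gene. Sdhd lies at chr9:50603850-50604009 (minus), Cox6a1 at chr5:115348959-115349118 (minus), Ndufs6 at chr13:73328483-73328642 (minus) and Atp5b at chr10:128083147-128083306 (plus).
Sdhd: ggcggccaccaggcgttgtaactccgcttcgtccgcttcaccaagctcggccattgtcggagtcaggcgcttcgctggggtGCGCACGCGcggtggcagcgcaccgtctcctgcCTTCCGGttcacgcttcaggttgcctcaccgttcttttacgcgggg
Cox6a1: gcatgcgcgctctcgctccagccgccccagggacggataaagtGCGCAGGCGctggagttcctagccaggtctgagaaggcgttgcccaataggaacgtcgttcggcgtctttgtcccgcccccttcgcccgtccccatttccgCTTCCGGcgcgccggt
Ndufs6: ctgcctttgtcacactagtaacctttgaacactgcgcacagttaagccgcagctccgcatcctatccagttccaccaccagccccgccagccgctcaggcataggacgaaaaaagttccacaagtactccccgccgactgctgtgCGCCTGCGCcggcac
Atp5b: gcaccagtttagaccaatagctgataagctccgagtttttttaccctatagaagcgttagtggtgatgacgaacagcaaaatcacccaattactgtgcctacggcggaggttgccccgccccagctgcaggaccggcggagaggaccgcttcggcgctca

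In Sdhd and Cox6a1 the ETS type stands on the opposite strand, as CTTCCGG, closer to the start than the first motif. In Ndufs6 the first motif itself is on the opposite strand. The nuclear respiratory factor 1 type was found in 22 of the 76 promoters (28.9%), against 15.3% of 9858 other expressed protein-coding genes and 7.03% of all 27025 promoters. The ETS type was found in 18 (23.7%), against 19.4% and 9.93%, the estrogen-related receptor type in 8 (10.5%), against 3.65% and 5.38%, and the YY1 type in 12 (15.8%), against 8.33% and 7.28%. For the YY1 type this order turns in the 250 bases before the start alone, where it was found in 1 promoter (1.32%), against 5.16% and 5.18%. At least 1 of the 4 was found in 44 promoters (57.9%), against 39.0% and 25.8%. The median GC content was 58.4% in these promoters, 61.3% in other expressed genes and 52.8% in all promoters. The genes were chosen by name and no test was made of these shares.

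By complex the nuclear respiratory factor 1 type was found in 8 of 32 promoters of complex I, 2 of 3 of complex II, 2 of 5 of complex III, 1 of 14 of complex IV and 7 of 14 of complex V. The single promoter of complex IV was that of Cox6a1. The ETS type was found in 4, 2, 2, 3 and 5 promoters of complexes I to V. Levels did not separate by the first motif: the 22 genes with it had a median of 95.2 TPM and the 54 without it one of 91.3 TPM. Genes with no matched promoter entry included Atp5a1, Atp5mpl, Cox4i1, Cox4i2, Cox6a2, Cox6c, Cox8c, Cyc1, Ndufa2, Ndufa4l2, Ndufaf6, Ndufb9, Ndufs1, Sdhc, Uqcrb, Uqcrc2 and Uqcrq.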

How the data were processed

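Each of the 2 libraries had 3 tables, made on mm10 with the GENCODE M21 annotation per the deposited notes. In the gene table the authors deposited TPM and an expected count for each gene, and the first transcript table also gives the percent of each transcript in its gene, as deposited by the authors; per the file headers these columns are those RSEM writes. The second transcript table was deposited with TPM and an estimated count for each transcript, in columns that kallisto writes per the file headers, and was summed per gene. Program names and versions, aligner and strand setting were not given in the sources used here. The authors scaled TPM over every entry, the spike-ins too. Rows that name no mouse gene held 0.421% and 0.408% of the counts in replicates 1 and 2 and were left out.

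Expected counts were rounded and scaled by TMM (edgeR 4.0.16, R 4.3.3). Genes with a mean count of at least 10 were compared between libraries by a binomial test, exact and two-sided (scipy 1.17.1, Python 3.11.15), replicate 2 over replicate 1. It measures counting error, not spread between animals. Log2 ratios of counts have 0.5 added, and those between tables have 0.01 TPM added. The test was tried on simulated data. Genes and lists were chosen with earlier results of these data known. Named are, per complex, the 3 highest and 2 lowest genes, core subunits, isoform sets, genes under 1 TPM and the extremes of each comparison. Some of these are not reported here. Alternatives changed the scaling, filters, table and promoter window, and left out each replicate.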

Additional observations from a re-analysis of the deposited data

How the results depend on the processing

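Of the 95 genes, 91 were at 1 TPM or more in both libraries of the second table and 85 were at 5 TPM or more in the gene table. Median TPM of complexes I, II, III, IV and V was 155, 106, 240, 283 and 285 in the second table, and 199, 180, 334, 308 and 343 when TPM was rescaled over protein-coding nuclear genes. Placing genes by symbol alone gave complex I a median of 74.0 TPM, and leaving out genes flagged as sharing reads gave complex IV one of 121 TPM. With 1 library at a time the medians were 79.5 to 84.4 (I), 72.5 to 75.8 (II), 136.9 to 138.9 (III), 127.2 to 127.3 (IV) and 137.6 to 145.3 TPM (V), the median log2 ratio of both tables was 0.83 to 0.89 and the median coding share 95.5% to 95.9%. By the second table, 1 entry was apart between libraries, the second Atp5o entry, and under every other scaling and filter run 0 were. The median library log2 ratio was 0.0034 with ERCC totals. The library log2 ratios of Cox6b2, Ndufaf2 and Atp5g2 were −0.0322, −0.0102 and −0.0438 in the second table. With copies added to their gene, an alternative chosen after seeing the data, the median log2 ratio of the tables was 0.82. The median coding share was 87.0% in the second table, against 85.5% over expressed protein-coding genes. With 250 bases before the start alone, the estrogen-related receptor type was found in 5 promoters (6.58%), against 3.34% of other expressed genes. The YY1 type was found in 1, below the share of other expressed genes. Causes of these shifts were not tested. No paired analysis was possible because the series has 1 group. Depth limits the isoforms of complex IV, at 26 counts or fewer per library.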
